A study of Mus musculus with 6 samples.

Results

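The genes described are 10 enzymes that make, phosphorylate or use nicotinamide adenine dinucleotide (NAD+) and its phosphate NADP+ in mouse liver. They were taken by symbol from the deposited comparison table, and their counts were matched by versioned Ensembl identifier. *Nampt*, *Nmnat1*, *Nmnat3*, *Naprt*, *Qprt* and *Nadsyn1* belong to NAD+ synthesis, *Nadk* and *Nadk2* to NADP+ synthesis, and *Nnmt* and *Cd38* use nicotinamide and NAD+, respectively. All 10 were found among the 54446 genes listed, and all 10 were among the 16734 genes kept by the filter on low counts. The libraries came from the livers of 3 WT mice and 3 *Fmo5*-/- mice, which lack flavin-containing monooxygenase 5 in the whole animal. All 6 were males on a C57BL/6 background (C57BL/6J in the study's methods), aged 32 weeks and fed a standard chow diet, and none received a treatment. Each library of single 75-base reads came from the liver of 1 mouse, and the genotypes were housed in adjacent cages. The knockout is a single mouse line, so that the genotype and other differences between this line and the WT colony cannot be told apart.

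NAD+ carries electrons between enzymes of fuel oxidation and is also consumed as a substrate by sirtuins, poly(ADP-ribose) polymerases and CD38. The liver makes it from tryptophan through the kynurenine route, from nicotinic acid through the Preiss-Handler route, and from nicotinamide, the product of NAD+ consumption, through salvage. NAD kinases add a phosphate to give NADP+, whose reduced form NADPH supplies reducing power for lipid synthesis and antioxidant defence, while methylation of nicotinamide removes it from the salvage cycle.

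The libraries held between 44886286 and 52338675 counts on genes, out of 67753857 to 75632821 reads listed. *Fmo5*, the targeted gene, had normalized counts (counts scaled for library size) of 39808, 37405 and 30240 in WT mice and of 1071, 1102 and 1194 in *Fmo5*-/- mice, a log2 fold change of -5.00 with a standard error (SE) of 0.14 (adjusted p = 2.79e-07 by edgeR's quasi-likelihood test). The albumin gene *Alb*, a defining marker of hepatocytes, had between 3661475 and 5776524 raw counts in each library. Of 8 hepatocyte markers, edgeR called 0, with 1 at an unadjusted p under 0.05 and 1 called by DESeq2. Over all genes with an adjusted p, these shares were 1.37%, 21.8% and 8.96%. The share of reads that fell in no gene was 6.86%, 6.88% and 7.02% in WT mice and 6.96%, 8.63% and 8.28% in *Fmo5*-/- mice. Other shares did not overlap between genotypes. Reads mapped to several places were 11.8% to 13.1% in WT and 10.4% to 11.5% in *Fmo5*-/- mice. Unmapped reads were 9.72% to 10.1% and 9.10% to 9.20%, and reads in more than 1 gene 3.52% to 3.62% and 3.72% to 3.98%. The part of these shares in the results was not tested.

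Messenger RNA of the mitochondrial NAD kinase *Nadk2* had the largest difference of the 10 genes, with a mean about 27% lower in *Fmo5*-/- than in WT mice. *Nampt* and *Nadk* had means about 16% lower. The other 7 genes had log2 fold changes between -0.070 and 0.14, each with a confidence interval that includes 0. At an adjusted p under 0.05, edgeR's quasi-likelihood test called 0 of the 10 genes, and it called 229 of all 16734 tested genes (1.37%). At an unadjusted p under 0.05 it gave 3 of the 10 (*Nadk2*, *Nampt* and *Nadk*), against 21.8% of all tested genes. All 3 were lower in *Fmo5*-/- mice, and 10.2% of all tested genes were lower at that threshold. DESeq2 called 1 of the 10, *Nadk2*, against 8.96% of the 15571 genes to which it gave an adjusted p. The 3 mice of 1 genotype lay apart from the 3 of the other in 2 of the 10 genes (*Nadk2* and *Nampt*), against 27.4% of all tested genes. In both of them the *Fmo5*-/- mice were the lower group, as in 13.5% of all tested genes. The median log2 fold change of the 10 genes was -0.011, beside 0.0058 over all tested genes.

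**Figure D1:**
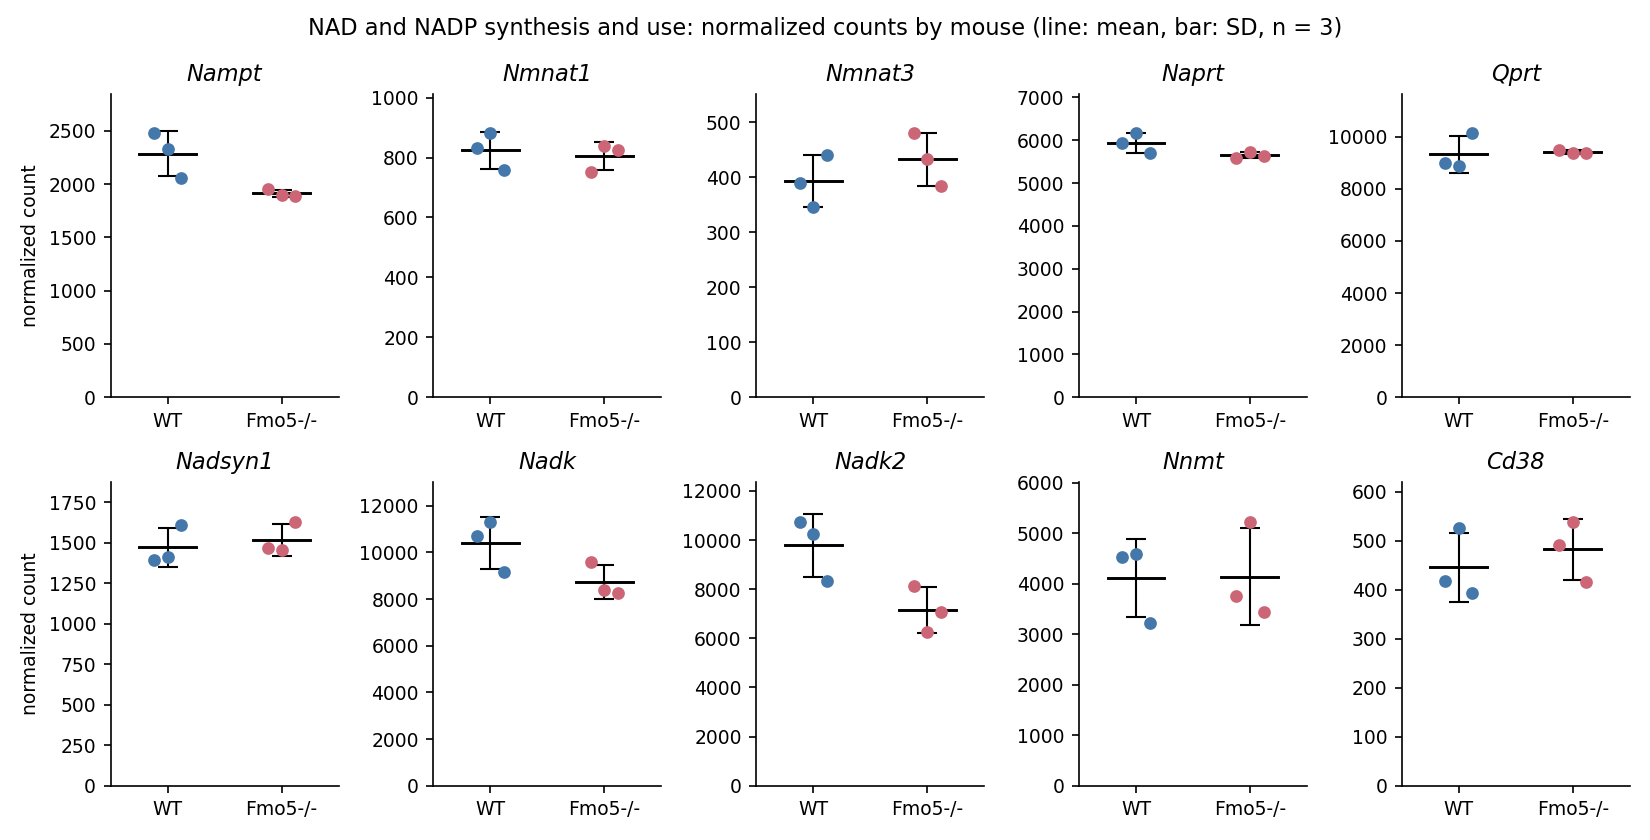
Normalized counts (vertical axes, from 0) of the 10 genes in each WT mouse (blue) and each *Fmo5*-/- mouse (red), with the mean and SD of 3 mice in black. The *Fmo5*-/- mice lie below every WT mouse for *Nadk2* and *Nampt*, and the genotypes overlap for the other 8 genes.

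**Figure D2:**
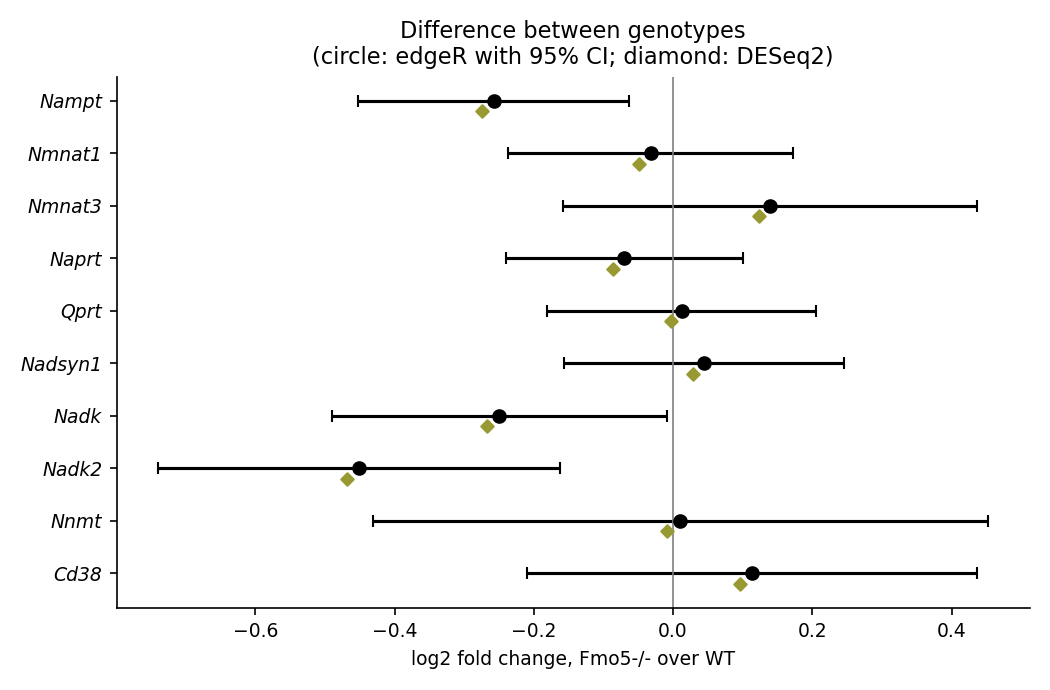
Log2 fold change, *Fmo5*-/- over WT, of the 10 genes (horizontal axis). Circles and bars give edgeR's estimate with its 95% confidence interval, and diamonds give the DESeq2 estimate. The intervals of *Nadk2*, *Nampt* and *Nadk* lie below 0 and the other 7 include 0.

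The kinases that make NADP+ come first. *Nadk2* (ENSMUSG00000022253.15, chr15:9071260-9110891 of GRCm38, plus strand) encodes the NAD kinase of mitochondria. Its normalized counts were 10753, 10249 and 8348 in WT mice. In *Fmo5*-/- mice they were 8149, 6253 and 7072, so that the highest *Fmo5*-/- mouse lay just under the lowest WT mouse. Group means were 9784 ± 1268 and 7158 ± 951 (SD, n = 3 each). The log2 fold change was -0.45 (SE 0.13, 95% confidence interval -0.74 to -0.16), a change of -26.8% (interval -40.1% to -10.6%). EdgeR's quasi-likelihood test gave a p of 0.00631 and an adjusted p of 0.0938, and 4.91% of all tested genes had a lower log2 fold change. The call depends on the tool and on the filter: the adjusted p was 0.0175 by DESeq2, and 2.89e-04 by edgeR with no filter on low counts. In the fits that left out 1 mouse, its log2 fold change stayed between -0.56 and -0.36 and edgeR's adjusted p between 0.0767 and 0.268. The pair of *Fmo5*-/- mice with the lowest *Nadk2* were also the pair with the highest shares of reads in no gene (8.63% and 8.28%). The part of that share in this result was not tested. In whole liver, fewer cells of a type and less RNA per cell cannot be told apart.

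*Nadk* (ENSMUSG00000029063.16, chr4:155562378-155591001, plus strand) encodes the NAD kinase of the cytosol. WT mice had 10706, 11319 and 9155 normalized counts, and *Fmo5*-/- mice had 9584, 8371 and 8268. The first *Fmo5*-/- mouse lay above the third WT mouse, and the other mice were separated by genotype. Means of 10393 ± 1116 and 8741 ± 732 (SD, n = 3 each) gave a log2 fold change of -0.25 (SE 0.11, interval -0.49 to -0.0092). EdgeR's p was 0.0434 and its adjusted p 0.213, and the adjusted p of DESeq2 was 0.165. Over the fits that left out 1 mouse the log2 fold change ran from -0.33 to -0.18.

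*Nampt* (ENSMUSG00000020572.8, chr12:32819545-32853349, plus strand) encodes nicotinamide phosphoribosyltransferase, the rate-limiting enzyme of salvage, which turns nicotinamide into nicotinamide mononucleotide (NMN). Normalized counts were 2479, 2327 and 2056 in WT mice and 1952, 1898 and 1889 in *Fmo5*-/- mice. All *Fmo5*-/- values lay under all WT values, and the *Fmo5*-/- mice were close together, with a coefficient of variation of 1.77% against 9.37% in WT mice. Means were 2287 ± 214 and 1913 ± 33.9 (SD, n = 3 each). The log2 fold change of -0.26 (SE 0.086, interval -0.45 to -0.063), or -16.4%, had a p of 0.0151 and an adjusted p of 0.133 by edgeR's quasi-likelihood test. DESeq2 gave an adjusted p of 0.113. No alternative called the gene, and leaving out 1 mouse at a time gave log2 fold changes from -0.32 to -0.19.

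The third WT mouse had the lowest WT value of all 3 of these genes. Without it, overlap was absent from 6 of the 10 genes, namely *Nampt*, *Nadsyn1*, *Qprt*, *Naprt*, *Nadk* and *Nadk2*, in a comparison of 2 mice against 3. These genes differed in direction. *Nadsyn1* and *Qprt* were then higher in *Fmo5*-/- mice (log2 fold changes 0.12 and 0.081), and *Nampt*, *Naprt*, *Nadk* and *Nadk2* were lower. The same comparison left 41.9% of all tested genes without overlap.

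Promoter windows of the RefSeq annotation on GRCm38.p6, from 250 bases before to 50 bases after a transcription start, were matched by symbol to 7 of the 10 genes, in 9 windows. *Naprt*, *Nnmt* and *Nadk2* had no entry. Windows are shown for the pair of genes with an unadjusted p under 0.05 and an entry, *Nampt* and *Nadk*, and for *Qprt*, the gene of the highest level per length among the 10, whose genotypes overlapped. Capitals mark a match, read on either strand, to an E-box (CACGTG, the element bound by the clock proteins CLOCK and BMAL1) or to the core of the antioxidant response element (TGACNNNGC, bound by NRF2). The *Nampt* window is chr12:32820085-32820384 on the plus strand, the *Nadk* window chr4:155563565-155563864 on the plus strand and the *Qprt* window chr7:127121980-127122279 on the minus strand, each 300 bases long and written 5′ to 3′ along the gene.
Nampt: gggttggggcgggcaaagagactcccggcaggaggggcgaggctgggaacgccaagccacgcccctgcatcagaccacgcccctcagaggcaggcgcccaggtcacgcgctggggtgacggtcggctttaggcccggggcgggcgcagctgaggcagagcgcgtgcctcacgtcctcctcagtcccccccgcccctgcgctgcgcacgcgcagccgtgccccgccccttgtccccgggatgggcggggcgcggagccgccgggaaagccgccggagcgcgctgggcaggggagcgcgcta
Nadk: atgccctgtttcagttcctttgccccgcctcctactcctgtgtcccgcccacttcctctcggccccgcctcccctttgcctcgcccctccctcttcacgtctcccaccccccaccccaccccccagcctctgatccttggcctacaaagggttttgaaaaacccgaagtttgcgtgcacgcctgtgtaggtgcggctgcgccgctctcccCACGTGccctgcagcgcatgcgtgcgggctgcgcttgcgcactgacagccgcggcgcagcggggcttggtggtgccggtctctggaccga
Qprt: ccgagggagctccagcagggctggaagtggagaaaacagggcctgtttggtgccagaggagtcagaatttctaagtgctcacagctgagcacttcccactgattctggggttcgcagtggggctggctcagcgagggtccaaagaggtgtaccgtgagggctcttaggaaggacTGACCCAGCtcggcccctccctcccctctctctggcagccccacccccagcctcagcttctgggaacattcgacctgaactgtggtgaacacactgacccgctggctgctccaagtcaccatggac

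The *Nadk* window held an E-box starting at base 211, and a further *Nadk* window, at another start, held none. E-boxes were found in 1 of the 9 windows and in 7.15% of the 32851 windows of all genes. The core of the antioxidant response element was found in 2 of the 9, those of *Qprt* (starting at base 175) and *Nmnat3* (starting at base 271), and in 12.4% of all windows. A direct repeat read by PPARA with RXR (AGGTCA, 1 base of any kind, AGGTCA) and a D-box (TTATGTAA, read by the clock output factors DBP, TEF and HLF) were found in 0 of the 9 windows, and in 0.0396% and 0.938% of all windows. No 2 of these matches overlapped, since each window held at most 1. The *Nampt* window lies inside the span given above for the gene, so that the first annotated base, 32819545, and the bases before it were not searched. It is rich in G and C (76.3%), and the median over the 9 windows was 65.7%, beside 52.7% over all windows.

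Among the enzymes that turn NMN into NAD+ are *Nmnat1* in the nucleus and *Nmnat3* in mitochondria. A further gene of this step, *Nmnat2*, was read with the salvage list below and had 8 to 19 raw counts per library. *Nmnat1* (ENSMUSG00000028992.13, chr4:149467572-149485202, minus strand) had normalized counts of 832, 882 and 759.7 in WT mice and of 753, 839.9 and 827 in *Fmo5*-/- mice. The values of the genotypes were interleaved, with a log2 fold change of -0.032 (SE 0.091, adjusted p = 0.874 by edgeR). The confidence interval allows a change between -15.1% and 12.7%.

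*Nmnat3* (ENSMUSG00000032456.13, chr9:98287435-98420438, plus strand) is a gene of low level, with 311 to 516 raw counts per library. Its normalized counts were 389.7, 347 and 442 in WT mice and 481, 434 and 384 in *Fmo5*-/- mice, and the groups overlapped. With a log2 fold change of 0.14 (SE 0.13, adjusted p = 0.582 by edgeR), the interval from -10.3% to 35.4% leaves room for a larger increase than decrease.

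The Preiss-Handler route and the kynurenine route join at nicotinic acid mononucleotide. *Naprt* (ENSMUSG00000022574.7, chr15:75890956-75894481, minus strand), whose enzyme makes that mononucleotide from nicotinic acid, had normalized counts of 5934, 6167 and 5700.1 in WT mice and of 5591, 5737 and 5632 in *Fmo5*-/- mice. The first and the third *Fmo5*-/- mouse lay below the WT range, and the second lay at its lower end. The log2 fold change was -0.070 (SE 0.075, adjusted p = 0.637 by edgeR), with an interval of -15.3% to 7.21%. Of its exon bases, 11.8% are shared with *Eef1d*, and STAR's gene counts leave out reads that lie in more than 1 gene.

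*Qprt* (ENSMUSG00000030674.5, chr7:127107114-127122226, minus strand) encodes quinolinate phosphoribosyltransferase, which makes the same mononucleotide from quinolinate, the end product of tryptophan breakdown along this route. WT mice had 8977, 8877 and 10143 normalized counts and *Fmo5*-/- mice had 9504, 9375 and 9362. All *Fmo5*-/- mice lay inside the WT range, with a coefficient of variation of 0.832% against 7.54% in WT mice. The log2 fold change was 0.013 (SE 0.086, adjusted p = 0.949 by edgeR), and its interval, -11.8% to 15.3%, does not reach the 26.8% reduction estimated for *Nadk2*.

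*Nadsyn1* (ENSMUSG00000031090.14, chr7:143795584-143822849, minus strand) encodes NAD synthetase, which adds the amide group in the final step of both routes. Its normalized counts were 1394, 1409 and 1608 in WT mice and 1468, 1452 and 1629.7 in *Fmo5*-/- mice. The groups overlapped, at a log2 fold change of 0.044 (SE 0.089, adjusted p = 0.820 by edgeR) and an interval from -10.3% to 18.5%.

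*Nnmt* (ENSMUSG00000032271.13, chr9:48591877-48605153, minus strand) encodes nicotinamide N-methyltransferase, which uses S-adenosylmethionine to methylate nicotinamide to 1-methylnicotinamide. Among the 10 genes it varied most between mice of a genotype, with coefficients of variation of 18.7% in WT and 23.1% in *Fmo5*-/- mice. WT mice had 4518, 4584 and 3225 normalized counts and *Fmo5*-/- mice had 3754, 5228 and 3434. The second *Fmo5*-/- mouse was the highest of all 6 and the third WT mouse the lowest. Means of 4109 ± 766 and 4139 ± 957 (SD, n = 3 each) gave a log2 fold change of 0.011 (SE 0.19, adjusted p = 0.982 by edgeR), and the interval of -25.8% to 36.9% is the widest of the 10 on the log2 scale.

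*Cd38* (ENSMUSG00000029084.5, chr5:43868553-43912375, plus strand) encodes an NAD+ glycohydrolase of the cell surface that is known from immune cells and tissue macrophages. Normalized counts were 418, 526 and 394 in WT mice and 491, 539 and 416 in *Fmo5*-/- mice, with overlap and a log2 fold change of 0.11 (SE 0.14, adjusted p = 0.695 by edgeR). The interval was -13.6% to 35.4%. In the same livers, the summed normalized counts of Kupffer cell and macrophage markers ran from 11531 to 13741 in WT mice and from 18111 to 32677 in *Fmo5*-/- mice, with positive log2 fold changes in 9 of 9 markers and no overlap in 8, against 27.4% of all tested genes. EdgeR called 1 of the 9, *Clec4f* (log2 fold change 0.70, adjusted p = 0.0275), DESeq2 called 8, and none of the 9 was at 0. T and NK cell markers summed to 194 to 274 in WT and 346 to 1171 in *Fmo5*-/- mice, with positive log2 fold changes in 8 of 8 and no overlap in 4. The highest sum was that of the second *Fmo5*-/- mouse, and the others had 346 and 498. EdgeR called 0 of these 8, with 5 at an unadjusted p under 0.05, and DESeq2 called 3. Over all genes, edgeR called 1.37%, with 21.8% at an unadjusted p under 0.05, and DESeq2 called 8.96%. Of 5 neutrophil markers 2 passed the filter on low counts, *S100a8* and *S100a9*, each higher in *Fmo5*-/- mice without overlap (log2 fold changes 1.29 and 1.26, edgeR adjusted p = 0.149 and 0.146). Their raw counts were at most 115 and 130 in a library, and those of the neutrophil markers *Ly6g* and *Mpo* at most 1 and 4. DESeq2 called *S100a9* of these. B cell and plasma cell markers summed to 337 to 449 in WT mice and to 457.5 to 579 in *Fmo5*-/- mice. Of these 7 markers, 6 had positive log2 fold changes and 1 had no overlap. At an unadjusted p under 0.05 edgeR gave 1 of the 7, and edgeR and DESeq2 each called 0. The part of these immune cells in the values of *Cd38* or *Nampt* was not tested.

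Levels of different genes were compared as CPM per kb, the counts scaled to library size and divided by the length of exon in kb. *Qprt* was the highest of the 10 on this scale, at 72.3 ± 5.45 in WT and 72.9 ± 0.610 in *Fmo5*-/- mice (SD, n = 3 each), above 96.3% of all tested genes. *Nnmt*, *Nadk* and *Naprt* followed, with means over the 6 mice of 53.6, 52.3 and 50.7, and the order among these 3 was not the same in every mouse. *Nadk2* came next at 39.2 ± 5.08 in WT and 28.7 ± 3.81 in *Fmo5*-/- mice, below *Naprt* in each mouse. A gap of 3.66 times separated *Nadk2* from *Nadsyn1*, at 9.26 over the 6 mice, and *Nampt*, at 8.52. *Nadsyn1* and *Nampt* overlapped, and their order differed between genotypes: *Nampt* had the higher mean in WT mice (9.28 against 9.12) and the lower in *Fmo5*-/- mice (7.76 against 9.40). *Nmnat1* (5.50), *Cd38* (2.44) and *Nmnat3* (1.69) were the lowest, each below the gene before it in every mouse. With the longest transcript as length, *Nmnat3* (3.91) stood above *Cd38* (2.91). The salvage enzyme was thus at a lower level per length than *Qprt*, *Naprt* and *Nnmt* in each of the 6 livers.

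**Figure D3:**
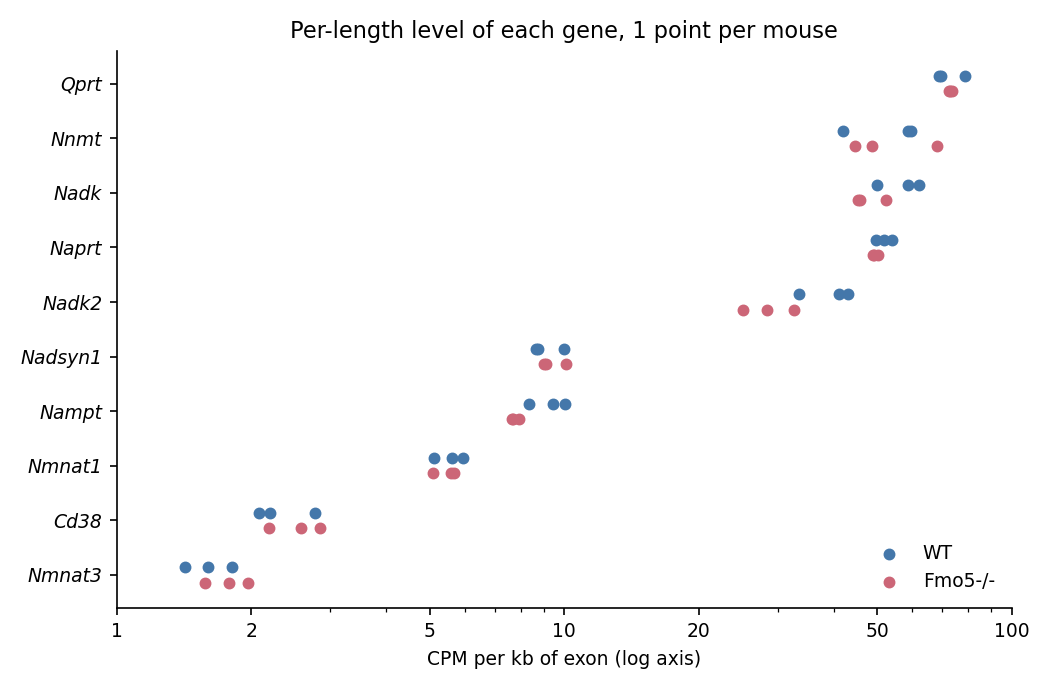
Per-length level in CPM per kb of exon (horizontal log axis) of the 10 genes, with 1 point per WT mouse (blue) and per *Fmo5*-/- mouse (red). *Qprt*, *Nnmt*, *Nadk*, *Naprt* and *Nadk2* lie between 25.0 and 78.6, and the other 5 genes between 1.42 and 10.1.

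Ratios of paired genes were taken within each liver, so that they do not depend on the scaling between libraries. With 3 mice against 3, the smallest p of a two-sided exact permutation test is 0.1, and 4 ratios were compared. Mitochondrial over cytosolic NAD kinase, *Nadk2* over *Nadk* per kb, was 0.735, 0.663 and 0.668 in WT mice and 0.623, 0.547 and 0.626 in *Fmo5*-/- mice. All *Fmo5*-/- livers had the lower ratio, with a difference of -0.20 on the log2 scale (pooled SD 0.098, exact permutation p = 0.1, 0.4 adjusted over the 4 ratios). *Nmnat1* over *Nmnat3*, the nuclear over the mitochondrial enzyme, was 3.52, 4.19 and 2.83 in WT mice and 2.58, 3.19 and 3.55 in *Fmo5*-/- mice, which overlap (difference -0.17, exact permutation p = 0.5). Leaving out 1 mouse moved this difference to between -0.32 (without the third WT mouse) and -0.037 (without the second WT mouse), and to -0.045 without the first *Fmo5*-/- mouse. *Nnmt* over *Nampt*, methylation over salvage of nicotinamide, was 5.84, 6.32 and 5.03 in WT mice and 6.17, 8.83 and 5.83 in *Fmo5*-/- mice (difference 0.26, pooled SD 0.26, exact permutation p = 0.5). Its difference was 0.072 without the second *Fmo5*-/- mouse and 0.17 without the third WT mouse. *Qprt* over *Nampt*, entry from quinolinate over entry from nicotinamide, was 6.92, 7.29 and 9.43 in WT mice and 9.30, 9.44 and 9.47 in *Fmo5*-/- mice. The third WT mouse lay among the *Fmo5*-/- mice, whose log2 ratios had an SD of 0.013 against 0.24 in WT mice (difference 0.27, exact permutation p = 0.2). The difference was 0.40 without the third and 0.18 without the first WT mouse.

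**Figure D4:**
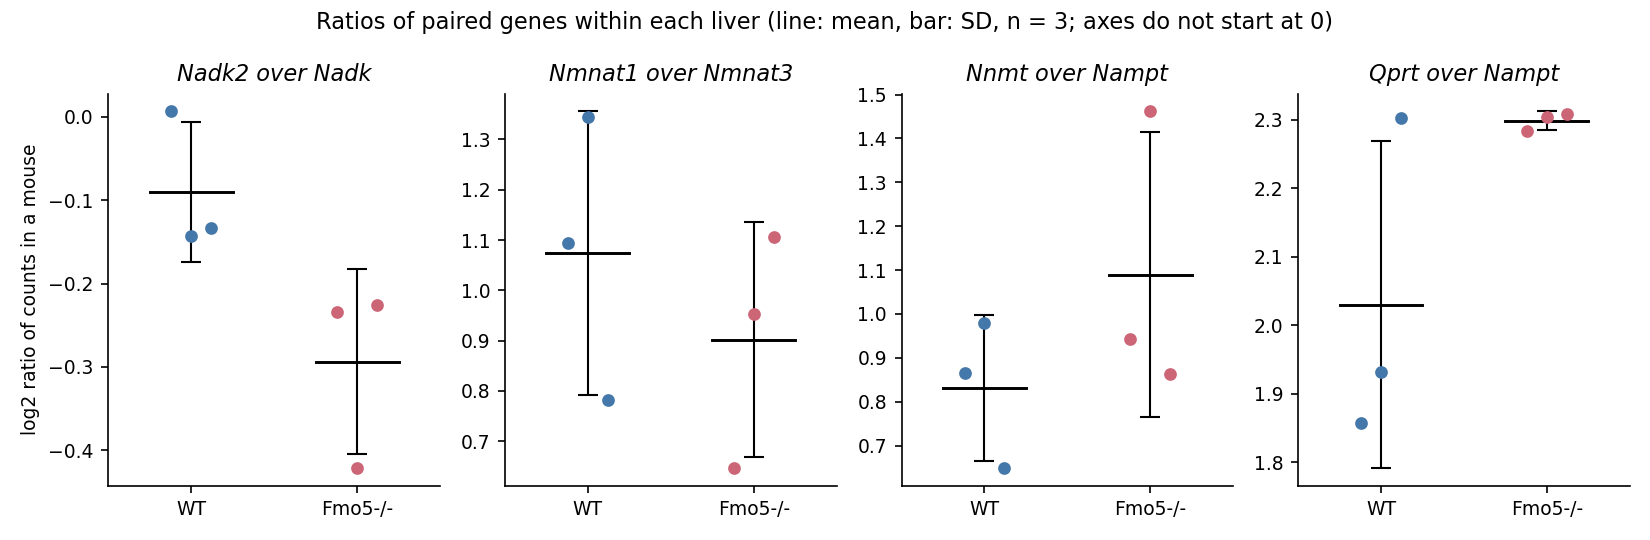
Log2 ratio of raw counts of paired genes within each liver (vertical axes, not from 0), for WT (blue) and *Fmo5*-/- (red) mice, with the mean and SD of 3 mice in black. *Nadk2* over *Nadk* is lower in every *Fmo5*-/- mouse than in every WT mouse, and the other 3 ratios overlap.

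Genes that feed, transport or spend the same cofactors were read from 8 lists, of which edgeR called 0 of 88 tested genes. DESeq2 called 9 of the 86 to which it gave an adjusted p (10.5%), all lower in *Fmo5*-/- mice, near the 8.96% of all genes. The counts at an unadjusted p under 0.05 that follow stand beside 21.8% of all tested genes, and counts without overlap beside 27.4%. The kynurenine route delivers quinolinate to *Qprt*, and its list also holds enzymes of side branches that do not. The list had 10 tested genes, 8 with negative log2 fold changes, and a median of -0.17. At an unadjusted p under 0.05, edgeR gave 4 of the 10, and DESeq2 called 3. *Tdo2*, the hepatic enzyme that opens the tryptophan ring, had normalized counts of 94904, 84039 and 73247 in WT mice and 61480, 56239 and 63117 in *Fmo5*-/- mice. The genotypes did not overlap, with a log2 fold change of -0.48 (SE 0.11, adjusted p = 0.0709 by edgeR and 0.00236 by DESeq2). *Haao*, the enzyme just before quinolinate, overlapped between genotypes, at 34694 ± 3250 in WT and 32933 ± 2186 in *Fmo5*-/- mice (SD, n = 3 each) and a log2 fold change of -0.075 (adjusted p = 0.719 by edgeR). Chosen after their values were seen, *Kyat3* (-0.49, edgeR adjusted p = 0.0545), *Aadat* (-0.59, edgeR adjusted p = 0.0841) and *Ido2* (-0.26, edgeR adjusted p = 0.117) were also without overlap. *Kyat3* and *Aadat* are aminotransferases that turn kynurenine into kynurenic acid, off the route to NAD+. *Ido1*, the tryptophan dioxygenase of immune cells, named for its low counts, had at most 2 raw counts in any library.

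Salvage from nicotinamide riboside and transport had 8 tested genes, 0 at an unadjusted p under 0.05 by edgeR, 0 called by DESeq2, and a median log2 fold change of 0.024, which ran from -0.010 without the first to 0.13 without the third WT mouse (0.11 without the second, and 0.042 and 0.039 without the first and the second *Fmo5*-/- mouse). *Slc29a1*, a nucleoside transporter, was at 10921 ± 1397 in WT and 11133 ± 1431 normalized counts in *Fmo5*-/- mice, and *Slc25a51*, the mitochondrial NAD+ carrier, at 2865 ± 449 and 2782 ± 295 (SD, n = 3 each). NAD+ breakdown and nicotinamide clearance had 16 tested genes and a median of -0.091. This median was -0.15 without the third WT mouse, -0.14 without the first *Fmo5*-/- mouse and -0.058 with counts of 1 strand. In this list 4 had an unadjusted p under 0.05 by edgeR, and DESeq2 called 3. *Cyp2e1*, a cytochrome P450 that oxidizes nicotinamide, had a log2 fold change of -0.057 (SE 0.15, adjusted p = 0.863 by edgeR). *Aox3*, an aldehyde oxidase, which can oxidize 1-methylnicotinamide to pyridones, had 58267, 61811 and 59957 normalized counts in WT mice and 49232, 40044 and 52856 in *Fmo5*-/- mice. The genotypes did not overlap for *Aox3* (log2 fold change -0.34, adjusted p = 0.135 by edgeR and 0.0489 by DESeq2). The other genes of the list called by DESeq2, named after their values were seen, were *Nudt12*, a hydrolase of NAD(P)H (-0.46, edgeR adjusted p = 0.0633), and *Aox1* (-0.49, edgeR adjusted p = 0.152). In this list 6 of 16 genes were without overlap, 5 lower and 1 higher in *Fmo5*-/- mice. Also named after their values were seen, *Noct* was lower (-1.69, edgeR adjusted p = 0.271) and *Sarm1* higher (0.52, edgeR adjusted p = 0.335), each without overlap. *Bst1* (0.72, edgeR adjusted p = 0.281) overlapped. Raw counts per library were 16 to 40 for *Sarm1* and 17 to 53 for *Bst1*.

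The 7 sirtuins, which are NAD+-dependent deacylases, had a median log2 fold change of -0.061 (-0.027 without the first and -0.023 without the second WT mouse), with 1 at an unadjusted p under 0.05 by edgeR and 0 called by DESeq2. *Sirt3* was at 4153 ± 512 in WT and 3891 ± 204 in *Fmo5*-/- mice, and *Sirt7* at 3688 ± 181 and 3877 ± 256 (SD, n = 3 each). The one at an unadjusted p under 0.05, named after its values were seen, was *Sirt6*, with a positive log2 fold change of 0.40 (edgeR adjusted p = 0.118). *Naxe* and *Naxd*, which repair hydrated NAD(P)H, had log2 fold changes of 0.018 and -0.12 (edgeR adjusted p = 0.907 and 0.366).

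NADPH regeneration, downstream of the kinases, had 16 tested genes and a median of -0.037, which ran from -0.12 without the first to 0.0078 without the second *Fmo5*-/- mouse, with 5 at an unadjusted p under 0.05 by edgeR and 3 called by DESeq2. *Aldh1l1*, of folate metabolism, had a log2 fold change of 0.083 (edgeR adjusted p = 0.666) and *Glud1*, glutamate dehydrogenase, of -0.28 (edgeR adjusted p = 0.220). Named after their values were seen, the 3 that DESeq2 called were the cytosolic enzymes *Idh1* (-0.47, edgeR adjusted p = 0.0564), *Me1* (-1.30, edgeR adjusted p = 0.0961) and *Shmt1* (-0.36, edgeR adjusted p = 0.116). *Me2*, also named after its values were seen, encodes a mitochondrial malic enzyme that mainly uses NAD+ rather than NADP+. It went the other way without overlap (0.72, edgeR adjusted p = 0.134), at 81 to 214 raw counts. Also named after their values were seen were *Nnt* and *Me3*. *Nnt*, the mitochondrial transhydrogenase, had at most 58 raw counts in a library, and *Me3*, the mitochondrial malic enzyme that uses NADP+, at most 11.

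The S-adenosylmethionine cycle, which supplies the methyl donor of *Nnmt*, had 10 tested genes and a median log2 fold change of -0.053 (-0.093 without the first and -0.033 without the second *Fmo5*-/- mouse), with 0 at an unadjusted p under 0.05 by edgeR and 0 called by DESeq2. *Mat1a*, which makes S-adenosylmethionine in liver, was at 106230 ± 11867 and 89780 ± 12394 normalized counts in WT and *Fmo5*-/- mice (SD, n = 3 each), with overlap. *Gnmt*, glycine N-methyltransferase, was at 98965 ± 8788 and 96432 ± 9701. Core clock and output genes, of which CLOCK and BMAL1 are known to drive *Nampt*, had 19 tested genes, 15 with negative log2 fold changes, and a median of -0.26. Without the second WT mouse this median was -0.070, and without the third *Fmo5*-/- mouse it was -0.40. Of these, 3 had an unadjusted p under 0.05 by edgeR and DESeq2 called 0. *Nr1d1* was at 4730, 6260 and 3801 normalized counts in WT and 4156, 4011 and 5087 in *Fmo5*-/- mice, and *Tef* at 4075, 6201 and 3550 in WT and 3373, 2934 and 4558 in *Fmo5*-/- mice. *Nr1d1* and *Tef* overlapped between the genotypes. Named after their values were seen, *Clock* (-0.26, edgeR adjusted p = 0.133) and *Hlf* (-0.34, edgeR adjusted p = 0.152) had lower counts in all *Fmo5*-/- mice than in any WT mouse. *Arntl*, which encodes BMAL1, overlapped, at 1299, 497 and 1347 normalized counts in WT and 1168, 983 and 948 in *Fmo5*-/- mice (-0.021). Tissues were taken over the same hours of the morning in the study, and the hour of each mouse is not given in the sources used here.

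**Figure D5:**
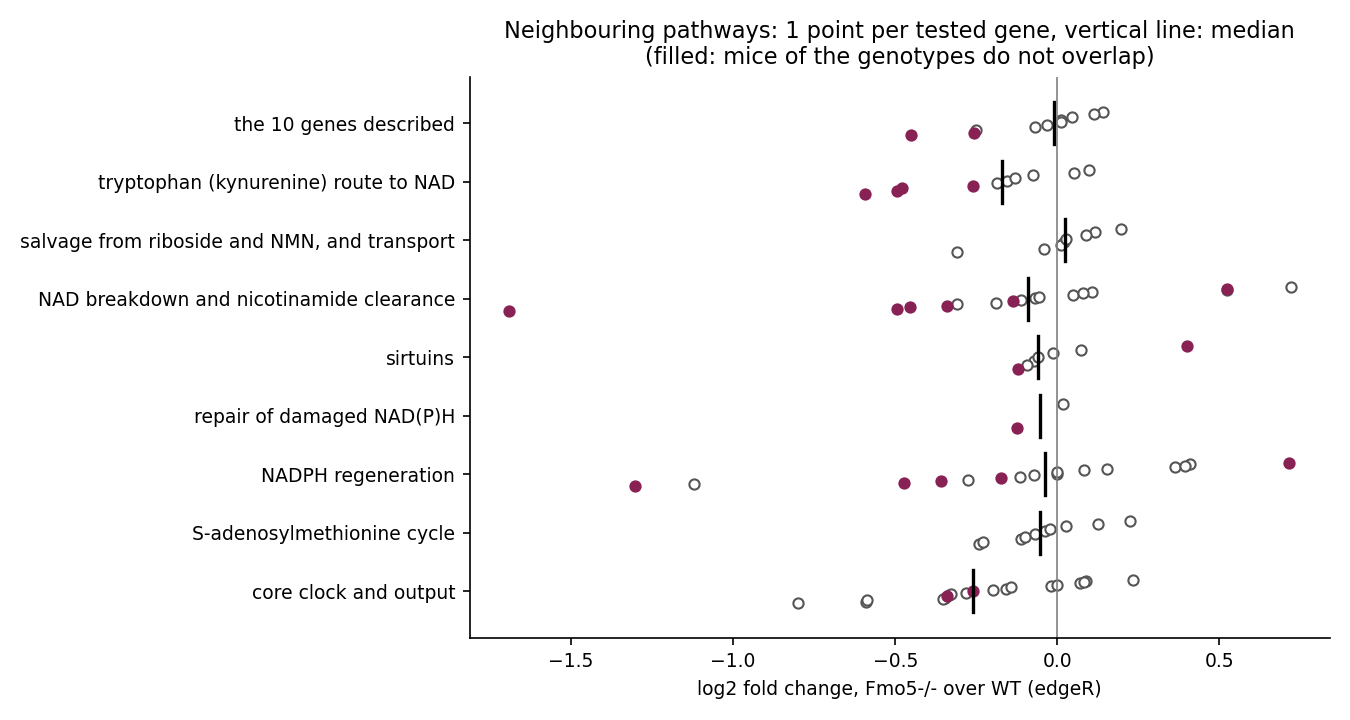
Log2 fold change, *Fmo5*-/- over WT (horizontal axis), of each tested gene of the 10 described and of 8 neighbouring lists, with the median of each list as a vertical line. Filled points are genes whose genotypes do not overlap. In the kynurenine list 4 of 10 points are filled, all at negative values, against 27.4% filled among all tested genes (13.5% lower). Of these 4, *Kyat3* and *Aadat* lie off the route to NAD+. The list's median is -0.17.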

How the data were processed

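RNA-seq of liver was deposited for 3 WT and 3 Fmo5-/- mice. The authors clipped adapters, mapped single reads to mm10 (GRCm38) with STAR and deposited its raw counts per gene for both strands together, which were analysed, and for each strand alone. The authors also deposited signal columns, made by dividing the raw counts by 1 DESeq2 size factor per library, as checked here. Its fold changes and p-values were not used. Genes were kept by filterByExpr (minimum count 10), scaled by TMM and compared with edgeR 4.0.16 (robust quasi-likelihood, R 4.3.3), with Benjamini-Hochberg adjustment over 16734 genes and a threshold of 0.05. Depth was 44886286 to 52338675 counts on genes per library, and the median biological coefficient of variation 15%. The scripts were tested on simulated data. The study's annotation release is not given in the sources used here, and positions and exon lengths come from GENCODE vM21, which holds 53229 of the 54446 genes listed.

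The members and lists were chosen with earlier results of these data known. Named were all members and *Fmo5*, and in each list the genes called by edgeR or, with none, the pair of highest mean. Other settings were DESeq2 1.42.0, RLE factors, scaling without the 20 most abundant genes, no filter, a mean of 500 before the fit, counts of 1 strand, another gene length, TPM, and each library left out.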

Additional observations from a re-analysis of the deposited data

How the results depend on the processing

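The log2 fold changes of *Nadk2*, *Nampt* and *Nadk* were negative in all 12 alternatives, and *Nampt* and *Nadk* were called in none. *Nadk2* was called by DESeq2 (-0.47) and with no filter on low counts (-0.47). Calls over all tested genes numbered 229, and 1395 by DESeq2, 1989 of 34200 (5.82%) with no filter and 53 with a mean of 500 before the fit, where fewer genes are tested and *Nmnat3* and *Cd38* drop out. Without 1 library they ranged from 31 to 763. Members called were 1 by DESeq2 and 1 of 10 with no filter, in each case *Nadk2*. Genes of the pathway lists called were 9 by DESeq2, 13 of 88 (14.8%) with no filter and 1 with RLE factors (*Kyat3*). Without 1 library, 0 to 1 list genes were called (*Cry1*, *Nudt12* or *Me2*), and 2 to 6 members had no overlap, where 34% to 41.9% of all tested genes had none.

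Estimates near 0 turned sign: *Qprt* by DESeq2 (-0.0033), *Nnmt* by DESeq2 (-0.0085) and with no filter (-0.0041), and *Nmnat1* with a mean of 500 before the fit (0.035). Leaving out 1 library gave log2 fold changes from -0.083 to 0.021 for *Nmnat1*, -0.013 to 0.12 for *Nadsyn1*, -0.093 to -0.039 (without the second WT mouse) for *Naprt*, -0.020 to 0.081 for *Qprt* -0.19 to 0.13 for *Nnmt*, 0.057 to 0.24 for *Nmnat3* and 0.026 to 0.25 for *Cd38*. List medians near 0 also turned sign for NADPH regeneration with counts of 1 strand (0.0046) and, with a mean of 500 before the fit, for repair of NAD(P)H and the S-adenosylmethionine cycle (both 0.011). There *Naprt* was at -0.0045, and the medians were -0.0017 for sirtuins, -0.11 for the kynurenine route, 0.087 for salvage and -0.082 for NADPH regeneration. With the longest transcript as gene length, *Nmnat3* ranked 9, *Cd38* 10, *Naprt* 3 and *Nadk* 4. The ratios kept their sign with 1 strand and without each library, and RLE factors leave them as they are. No paired analysis was made, because the labels give no pairing between WT and *Fmo5*-/- mice. Precision is limited by 3 mice per genotype: the intervals of *Nampt* and *Nadk* end at -0.063 and -0.0092.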
